A study of Homo sapiens with 12 samples.

Results

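The UGT1A genes lie in 1 locus on chromosome 2 and encode UDP-glucuronosyltransferases, enzymes of the endoplasmic reticulum that attach glucuronic acid to bilirubin, steroids, drugs and dietary phenols. The rule took the rows of the raw count table whose gene symbol is UGT1A1, UGT1A3, UGT1A4, UGT1A5, UGT1A6, UGT1A7, UGT1A8, UGT1A9 or UGT1A10. Of these 9 named members, 7 had a row among the 45478 genes of the table, while UGT1A3 and UGT1A5 could not be paired with a row by the name tables used and were not analysed here. The locus was selected on measured counts, namely UGT1A8 listed at 0 in A498 and present in the other 3 groups, so the contrasts between A498 and the other groups are given below as a description, without a test. Of the 7 rows, UGT1A1, UGT1A6, UGT1A8 and UGT1A9 passed the filter on low counts, and UGT1A4, UGT1A7 and UGT1A10 did not. UGT1A1 and UGT1A8 passed it through the groups other than A498, and UGT1A9 through libraries of the resistant lines, where it was higher.

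The libraries were made from mRNA of 4 cultures of clear cell renal cell carcinoma (ccRCC) cells, each with 3 replicate libraries. A498 and 786-O name the parental cells, established VHL-deficient lines from ATCC. Resistant A498 and resistant 786-O name the lines derived from them by growth in sunitinib, a tyrosine kinase inhibitor, for 4 months or more than 20 passages, at 2 µM for A498 and 4 µM for 786-O. All 4 groups share the growth medium, and the resistant cells were kept in medium with sunitinib throughout the selection. The treatment label reads none for every library, and every sample title holds the letters veh. Whether sunitinib was present when RNA was taken is not stated. Each resistant line is a single selected culture, and nothing in the sources says that the 3 replicates were separate cultures, so p-values measure only the spread between these libraries, which may be technical. No batch label is shared between groups, and effects of batch and group cannot be told apart.

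Total counts per library ranged from 20042519 to 47972092. The libraries labelled resistant A498 did not stand with A498. Across 15361 genes, the median Pearson correlation of log2 CPM (read counts brought to a common library total after TMM scaling) between libraries labelled resistant A498 and A498 was 0.801, against 0.930 with 786-O and 0.979 with resistant 786-O, while A498 and 786-O libraries had 0.795. Differences between the libraries labelled resistant A498 and A498 can thus not be told apart from a difference between cell lines, and those libraries are also set against 786-O. Resistant 786-O and 786-O had a median correlation of 0.934, below the 0.979 of resistant 786-O with the libraries labelled resistant A498. Replicate 2 of resistant 786-O stood apart from its fellows, with an SD of 0.288 for its log2 difference from them over 9925 genes, against 0.115 between replicates 1 and 3. Markers of kidney epithelium, among them PAX8 (199.7 to 312 CPM), LHX1, KRT8 and KRT18, were present in every group, whereas CA9, a hypoxia-induced marker of ccRCC, had 1.29 CPM in A498 and 3 counts or fewer in every library of the other groups. NDUFA4L2, another gene of the kidney and ccRCC list, had only 0.474 to 0.573 CPM in the 4 groups. Of 6 T cell markers, 6 in A498 and 5 in each other group were at 3 counts or fewer in every library. Among 6 hepatocyte markers, whose summed level ranged from 6.14 to 6.92 CPM in A498 and from 22.97 to 88.4 CPM elsewhere, SERPINA1 held nearly all, and albumin (ALB) was at 0.08 CPM or lower in every group. The intestinal list summed to 21.8 to 24.6 CPM in A498 and 6.93 to 12.05 CPM elsewhere, with CDH17 at 14.7 CPM in A498 and 0.194 to 0.450 CPM elsewhere, and CDX2 at 0.07 CPM or lower in every group. The part of these markers in the UGT1A levels was not tested.

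Each UGT1A gene has its own promoter and its own first exon, which encodes the substrate-binding part of the enzyme. That first exon is spliced to a common set of downstream exons, which encode the part that binds the sugar donor UDP-glucuronic acid. UGT1A1 is the principal enzyme of bilirubin glucuronidation and is best known from the liver. UGT1A6 handles small planar phenols, and UGT1A9 is a main phenol-conjugating form of the normal kidney. UGT1A7, UGT1A8 and UGT1A10 are known as forms of the gut and other tissues outside the liver, and UGT1A4 conjugates amines. Transcription of the locus is known to respond to the aryl hydrocarbon receptor (AHR), to the oxidative stress factor NRF2 (NFE2L2) and to liver-enriched factors such as HNF4A.

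In GRCh38, with GENCODE 44, the locus runs on the plus strand from the start of UGT1A8 to the common end of all members (chr2:233617633-233773300). The other members with a row start at 233636448 (UGT1A10), 233671898 (UGT1A9), 233681901 (UGT1A7), 233691607 (UGT1A6), 233718736 (UGT1A4) and 233760270 (UGT1A1). All 9 share exons 2 to 5, of 132, 88, 220 and 1039 bases. What separates the members is exon sequence that no other member holds, and it measures 930 bases for UGT1A8 and UGT1A10, 892 for UGT1A9, 2512 for UGT1A7, 2878 for UGT1A6, 952 for UGT1A4 and 2218 for UGT1A1. The last value holds an 882-base first exon and 1336 bases of alternative exon beyond the first shared exon. Which of the 2 stretches the UGT1A1 counts came from was not tested. The values of UGT1A6 and UGT1A7 hold main first exons of 976 and 892 bases, and the rest is other annotated exon before the shared exons.

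**Figure D1:**
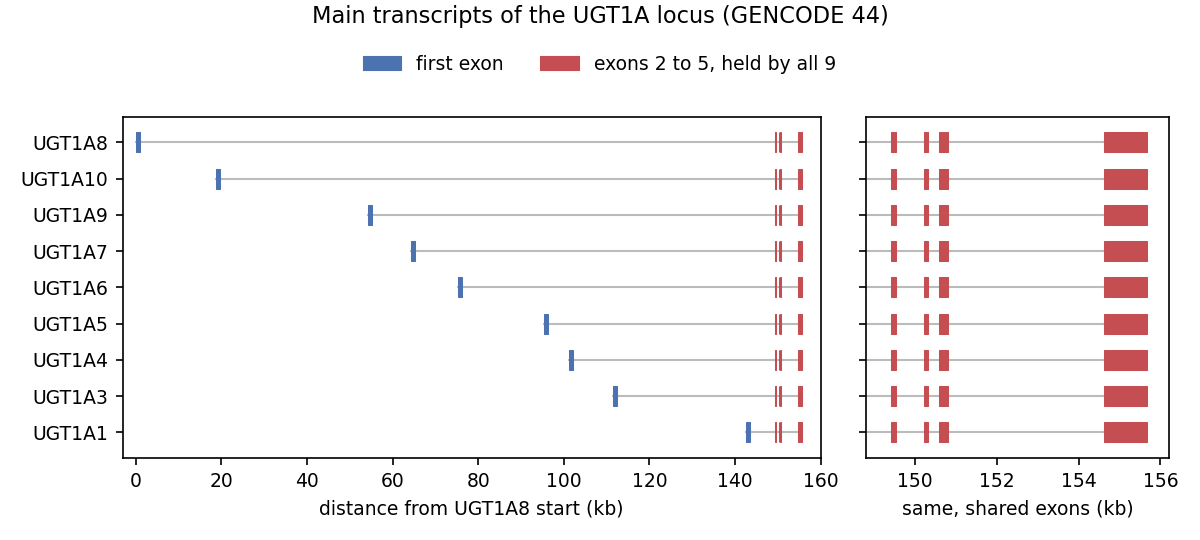
Map of the main transcript of each of the 9 UGT1A genes, drawn to scale as distance in kb from the start of UGT1A8, with the end of the locus enlarged on the right. Each gene has a first exon of its own (blue), and exons 2 to 5 (red), the largest of 1039 bases, lie at the same place in every gene.

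The shared exons limit what the counts mean. Reads that lie in them overlap 9 genes at once, and the option of featureCounts that assigns such reads to every gene is not among the settings listed in the study's methods. UGT1A4 had 0 counts in all 6 libraries of 786-O and resistant A498 in which UGT1A6 had 2131 to 2746, so reads from the shared exons were not added to every member. The counts below therefore compare groups for each gene, and are no measure of whole transcripts of that gene. The exon shared by every member that comes first after the splice is shown because reads made of it alone name no member (exon 2, chr2:233767034-233767165, plus strand).
shared exon 2: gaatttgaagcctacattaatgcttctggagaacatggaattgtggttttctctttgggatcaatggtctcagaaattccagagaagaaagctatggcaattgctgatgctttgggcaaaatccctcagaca

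First exons differ to unlike degrees. The coding parts of the first exons of UGT1A7, UGT1A8, UGT1A9 and UGT1A10 were 92.0 to 94.0% identical over 6 pairs, those of UGT1A3, UGT1A4 and UGT1A5 93.2 to 94.1% over 3 pairs, and UGT1A6 was 56.2 to 57.5% identical to the 8 others. The first 60 coding bases show how close UGT1A8 is to its neighbours, and capitals in UGT1A10, UGT1A9 and UGT1A7 mark the 7, 5 and 10 bases that differ from UGT1A8, while in UGT1A6 and UGT1A1 they mark the start codon (plus strand, UGT1A8 at chr2:233617708-233617767, UGT1A10 at chr2:233636523-233636582, UGT1A9 at chr2:233671935-233671994, UGT1A7 at chr2:233681938-233681997, UGT1A6 at chr2:233693005-233693064 and UGT1A1 at chr2:233760288-233760347).
UGT1A8: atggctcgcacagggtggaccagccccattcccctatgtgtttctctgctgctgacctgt
UGT1A10: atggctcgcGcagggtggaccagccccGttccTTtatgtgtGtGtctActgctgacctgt
UGT1A9: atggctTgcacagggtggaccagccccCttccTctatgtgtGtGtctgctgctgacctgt
UGT1A7: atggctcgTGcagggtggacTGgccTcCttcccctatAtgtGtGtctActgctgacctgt
UGT1A6: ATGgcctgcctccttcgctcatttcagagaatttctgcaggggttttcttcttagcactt
UGT1A1: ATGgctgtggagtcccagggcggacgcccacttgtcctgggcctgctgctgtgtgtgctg

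Of all 100-base windows of the first exon, 8.4% recurred unchanged elsewhere in the locus for UGT1A8, 4.9% for UGT1A9, 3.7% for UGT1A10 and 3.5% for UGT1A4, and none did for UGT1A1, UGT1A6 and UGT1A7. Reads shorter than or unlike such windows may still be shared, so that the split of counts among UGT1A7 to UGT1A10 is uncertain.

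UGT1A6 was the most counted member in every group, with 10 to 16 counts in A498 and 2020 or more in each library of the other groups. In A498 it had 12, 10 and 16 counts, in the libraries labelled resistant A498 2746, 2228 and 2619, in 786-O 2131, 2180 and 2584, and in resistant 786-O 3180, 2020 and 2856. All 9 libraries outside A498 lay far above the 3 of A498. In bulk libraries such as these, fewer cells that express a gene and less RNA per cell cannot be told apart. Scaled by library, the level was 0.467 ± 0.121 CPM in A498, 56.6 ± 0.664 in 786-O, 57.9 ± 10.2 in resistant 786-O and 104 ± 2.43 in the libraries labelled resistant A498 (SD, n = 3). The means stood 121-fold (786-O), 124-fold (resistant 786-O) and 222-fold (resistant A498) above A498.

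UGT1A8, the gene of the rule, had 0 counts in all 3 A498 libraries. It had 359, 289 and 345 counts in the libraries labelled resistant A498, 333, 367 and 436 in 786-O, and 824, 412 and 799 in resistant 786-O. These correspond to 13.6 ± 0.232, 9.31 ± 0.484 and 14.6 ± 4.47 CPM (SD, n = 3). In resistant 786-O the spread came from replicate 2, at 9.43 CPM, which lay within the range of 786-O (8.76 to 9.67 CPM), while replicates 1 and 3 had 16.8 and 17.5 CPM. A count of 0 allows up to 3 counts per library, a level of 0.112 CPM over the A498 libraries, for counting error only. Against that floor UGT1A8 was at least 82.9-fold higher in 786-O, at least 129.9-fold higher in resistant 786-O and at least 120.9-fold higher in the libraries labelled resistant A498.

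UGT1A1 likewise had 0 counts in every A498 library. Its counts were 191, 150 and 191 in the libraries labelled resistant A498, 257, 271 and 327 in 786-O, and 197, 143 and 224 in resistant 786-O. The levels of 7.26 ± 0.189 CPM and 7.01 ± 0.248 CPM in the first 2 of these groups lay close together, and resistant 786-O, with 4.07 ± 0.813 CPM, lay below both (SD, n = 3). UGT1A1 was at least 62.4-fold higher in 786-O, at least 36.2-fold higher in resistant 786-O and at least 64.7-fold higher in the libraries labelled resistant A498 than the floor of A498.

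UGT1A9, the phenol-conjugating form of normal kidney, was near the limit of detection in all 4 groups. Its counts were 5, 2 and 7 in A498, 17, 14 and 9 in the libraries labelled resistant A498, 7, 6 and 10 in 786-O, and 17, 20 and 9 in resistant 786-O. The group means lay between 0.165 CPM in A498 and 0.552 CPM in the libraries labelled resistant A498.

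The 3 members that did not pass the filter had from 0 to 21 counts in any library. UGT1A10 had 1, 1 and 0 counts in A498, 2, 5 and 1 in the libraries labelled resistant A498, 4, 10 and 11 in 786-O, and 18, 4 and 7 in resistant 786-O. UGT1A7 had 0, 1 and 2 counts in A498, 0, 2 and 3 in the libraries labelled resistant A498, 3, 4 and 2 in 786-O, and 13, 11 and 21 in resistant 786-O, where every library lay above all others. UGT1A4 ran the other way, with 8, 6 and 14 counts in A498, 0 in every library of resistant A498 and 786-O, and 3, 0 and 2 in resistant 786-O. Its mean of 0.342 CPM in A498 was at least 4.60-fold higher than the floor of 3 counts per library in 786-O. The 4 pseudogenes of the locus stayed low in every library: UGT1A12P had 0 counts throughout, UGT1A11P at most 1, UGT1A13P at most 3 and UGT1A2P at most 8, and none passed the filter.

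**Figure D2:**
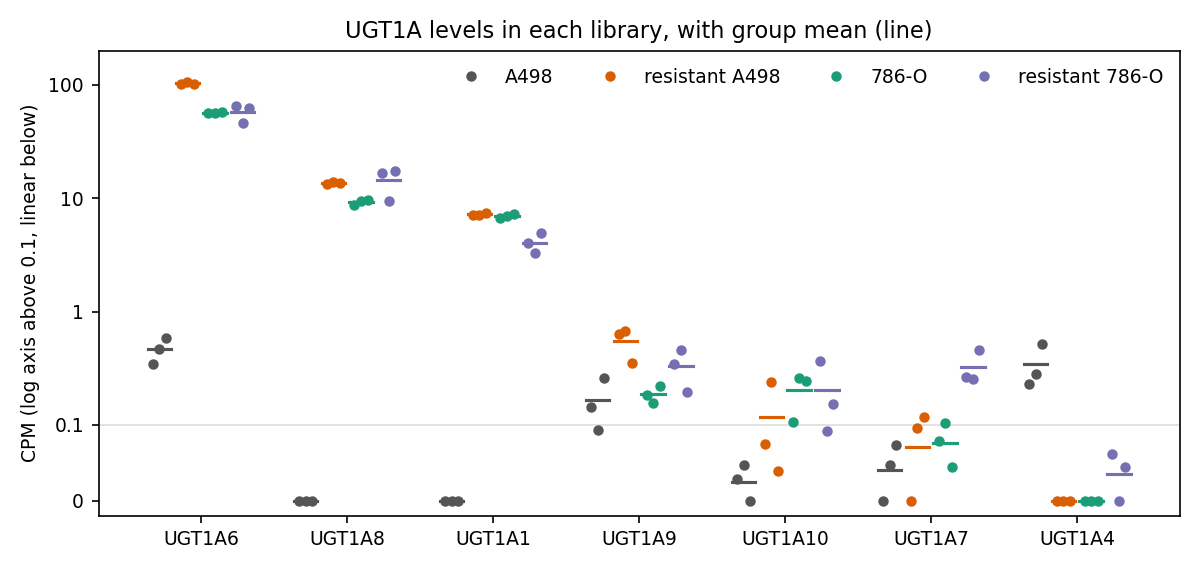
Level of each UGT1A gene with a row, in CPM on an axis that is logarithmic above 0.1 and linear below, with 1 point for each of the 3 libraries of a group and a line at the group mean. UGT1A8 and UGT1A1 sit at 0 in all 3 A498 libraries, and UGT1A6 reaches 104 CPM in the libraries labelled resistant A498.

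The low levels in A498 stood within a wide difference between these lines. Of 19929 genes tested, 23.0% had all 3 A498 libraries below the 9 others without overlap, as UGT1A6, UGT1A8 and UGT1A1 had. A floor of 3 counts or fewer in every A498 library and 5 CPM or more on average in each of the other groups was met by 52 genes, or 0.261%. UGT1A8 meets it by the way it was chosen, and UGT1A1, with 4.07 CPM in resistant 786-O, falls short of it.

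The expressed genes nearest to the locus, USP40 and HJURP, did not have the low levels in A498 of the UGT1A genes, whereas DNAJB3 and MROH2A were low in all groups and lowest in A498. USP40, which precedes it, had 69.3 ± 2.17 CPM in A498 and 54.5 to 61.3 CPM in the other groups. HJURP, which follows it, had 161 ± 4.45 CPM in A498 and 107 to 165 CPM elsewhere (SD, n = 3). DNAJB3, which lies within the locus, had 0 counts in A498 and 2 to 12 counts in the other libraries. MROH2A, between UGT1A1 and HJURP, had at most 1 count in A498 and at most 10 elsewhere.

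A further transcript from the other strand crosses UGT1A6. The lncRNA ENSG00000224814, chosen after its values were seen, lies on the minus strand at chr2:233693434-233708699, and 404 of its 663 exon bases fall inside exons of UGT1A6. It had 4, 4 and 6 counts in A498, 1608, 1321 and 1563 in the libraries labelled resistant A498, 1331, 1297 and 1555 in 786-O, and 1991, 1266 and 1698 in resistant 786-O. In the 9 libraries outside A498 these counts amounted to 58.6 to 62.7% of those of UGT1A6, and in A498 to 33.3, 40.0 and 37.5%. The study's methods give a strand-specific setting for the counting and a TruSeq Stranded mRNA kit for the libraries. Whether that setting matches the strand that the kit reads was not tested. Among 440 genes with at least 80% of their exon bases inside exons of a gene of the opposite strand, the median count per exon base was 1.35 times that of the partner. Whether the counts separate the strands was not settled by this value, and how far the counts of UGT1A6 and of the lncRNA come from the same transcripts was not tested.

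Within the locus, UGT1A6 took 82.8 ± 0.113% of the counts of the 7 rows in the libraries labelled resistant A498, 77.1 ± 0.679% in 786-O and 75.0 ± 2.26% in resistant 786-O (SD, n = 3). UGT1A8 took 10.8 ± 0.0695%, 12.7 ± 0.438% and 18.5 ± 2.42% in the same order. UGT1A1 took 5.79 ± 0.226%, 9.55 ± 0.153% and 5.28 ± 0.570%. The locus as a whole summed to 1.04 ± 0.354 CPM in A498, 125 ± 2.82 in the libraries labelled resistant A498, 73.4 ± 1.42 in 786-O and 77.4 ± 15.3 in resistant 786-O. Counts were also set as a share of UGT1A6 counts in the same library, which no scaling changes. UGT1A8 came to 13.0 to 13.2% in the libraries labelled resistant A498, 15.6 to 16.9% in 786-O and 20.4 to 28.0% in resistant 786-O. UGT1A1 counts were 6.73 to 7.29%, 12.1 to 12.7% and 6.19 to 7.84% of UGT1A6 in the same order. Such ratios were not computed for other genes. In CPM, 51.7 to 73.4% of all genes tested had no overlap of libraries between 2 of these groups.

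**Figure D3:**
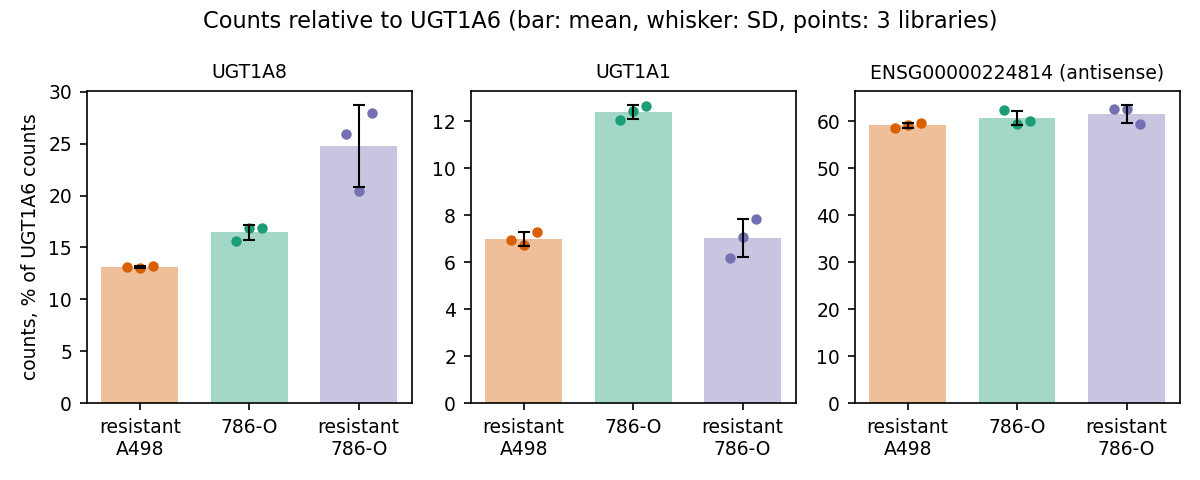
Counts of UGT1A8, UGT1A1 and the antisense lncRNA ENSG00000224814 as a percent of UGT1A6 counts in the same library, with bars at the mean, whiskers of 1 SD and 1 point for each of 3 libraries. UGT1A8 rises to a mean of 24.8% in resistant 786-O, UGT1A1 is highest in 786-O with 12.4%, and the lncRNA lies between 58.6 and 62.7% in these 9 libraries outside A498.

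Since the members hold unlike lengths of their own exon, levels between genes were also set per kb of exon held by no other member. On that scale UGT1A6 had 36.1 CPM per kb, UGT1A8 14.6 and UGT1A1 3.27 in the libraries labelled resistant A498. In 786-O the values were 19.7, 10.0 and 3.16 CPM per kb, and in resistant 786-O 20.1, 15.7 and 1.83. The order of these 3 genes was the same as in CPM in all 3 groups. UGT1A8 in 786-O came to 50.9% of UGT1A6 per kb, against 16.4% by counts. That share rests on the 2878 bases taken for UGT1A6, of which only 976 are the first exon of its main transcript. Which of these bases the UGT1A6 counts came from was not tested.

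The contrast of resistant 786-O with 786-O sets a resistant line against its parent as labelled, with a median correlation of 0.934 between them. UGT1A8 was higher and UGT1A1 lower in resistant 786-O, and UGT1A6 and UGT1A9 did not pass the test (edgeR quasi-likelihood test over 19929 genes, Benjamini-Hochberg adjusted p under 0.05). UGT1A9 was left out of the count, since it passed the filter through the resistant lines. That left 2 of 3 members called, where 68.5% of all genes tested were called (35.0% higher and 33.5% lower). Of these calls 51.1% were higher, or 62.5% where only the library size set the scale, and no called member changed direction under that scaling. UGT1A8 changed by a log2 fold change of 0.65 (SE 0.18, adjusted p = 0.0052), with resistant 786-O replicate 2 inside the range of 786-O. UGT1A1 fell by 0.78 on the log2 scale (SE 0.13, adjusted p = 0.00012), and it was the only 1 of the 4 whose libraries did not overlap between the 2 groups, where 68.9% of all genes tested had none. UGT1A6 had a log2 fold change of 0.03 (SE 0.09, adjusted p = 0.77). This last value rests on replicate 2 of resistant 786-O: without it the log2 fold change was 0.17 and edgeR's adjusted p 0.00091. UGT1A9 had a log2 fold change of 0.81 (SE 0.40), and in the fit with no filter 0.80 (edgeR adjusted p = 0.13). UGT1A7 entered no test with the filter. With no filter it was higher in resistant 786-O, by a log2 fold change of 2.08 (SE 0.57, edgeR adjusted p = 0.00064), from 2 to 4 counts per library in 786-O to 11 to 21. In that fit 14458 of 37667 genes were called. UGT1A10 (0.02) and UGT1A4 (edgeR adjusted p = 0.069) did not pass it.

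The libraries labelled resistant A498 were next set against 786-O, the parental line they stood closer to. UGT1A6 was higher by a log2 fold change of 0.88 (SE 0.09, edgeR adjusted p = 1.1e-06) and UGT1A8 by 0.54 (SE 0.18, adjusted p = 0.020), both without overlap of the libraries, where 73.4% of all genes tested had none. UGT1A1 did not pass the test (0.05, SE 0.13, adjusted p = 0.76). With UGT1A9 again left out of the count, 2 of 3 members were called, both higher, where 63.6% of all genes tested were called and 31.6% were higher. The call of UGT1A8 was lost without 786-O replicate 1 (0.50, edgeR adjusted p = 0.063). UGT1A9 had 6 to 17 counts per library in these groups and a log2 fold change of 1.52 (SE 0.41), and in the fit with no filter 1.51 (edgeR adjusted p = 0.0016).

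Between the libraries labelled resistant A498 and resistant 786-O, UGT1A6 was higher in the former by a log2 fold change of 0.84 (SE 0.09, edgeR adjusted p = 5.8e-06) and UGT1A1 by 0.83 (SE 0.13, adjusted p = 0.00023). UGT1A8 (-0.11, SE 0.18, adjusted p = 0.66) and UGT1A9 (0.71, SE 0.36, adjusted p = 0.12) did not pass the test. The libraries of both called members did not overlap, where 51.7% of all genes tested had none. This made 2 of 4 members called, both higher, where 46.1% of all genes tested were called and 23.0% were higher. Without resistant 786-O replicate 2 all 4 were called, with UGT1A8 at -0.34 (edgeR adjusted p = 0.00025) and UGT1A9 at 0.99 (adjusted p = 0.034). With no filter UGT1A7 was lower in the libraries labelled resistant A498 than in resistant 786-O (-2.20, SE 0.67, edgeR adjusted p = 0.0042). There 9010 of 37667 genes were called, and UGT1A10 and UGT1A4 did not pass. In the unfiltered fit of resistant A498 against 786-O, none of UGT1A4, UGT1A7 and UGT1A10 passed. The 3 contrasts share groups and are not independent of each other.

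**Figure D4:**
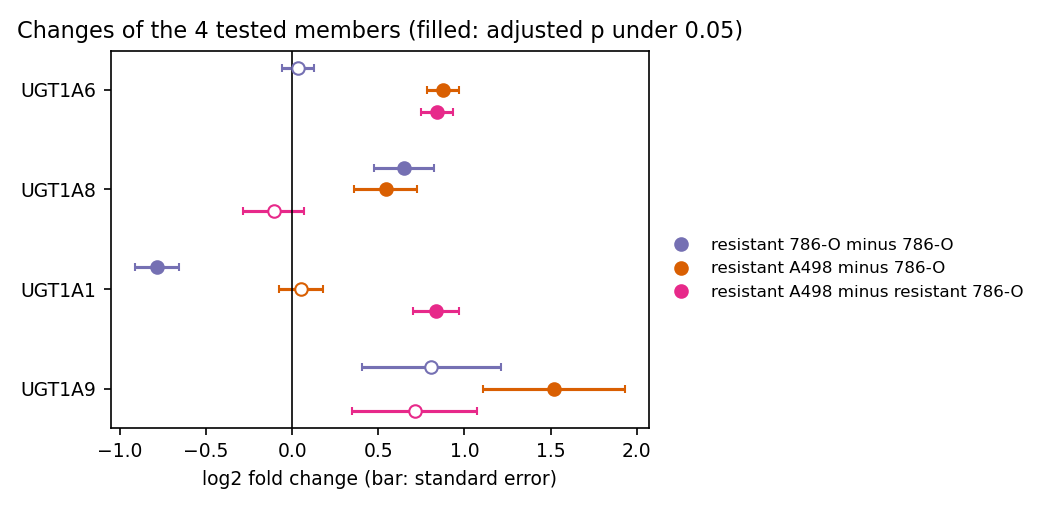
Log2 fold change of the 4 members tested in 3 contrasts, with bars of 1 standard error, where filled points passed the test at an adjusted p under 0.05 (UGT1A9 entered it through the resistant lines). UGT1A8 and UGT1A1 moved in opposite directions between 786-O and resistant 786-O (0.65 and -0.78), and UGT1A6 was higher in the libraries labelled resistant A498 than in both other groups (0.88 and 0.84).

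In the order of their levels, UGT1A6 ran from A498 through 786-O and resistant 786-O, whose difference did not pass the test with all libraries, to the libraries labelled resistant A498. UGT1A8 ran from A498 through 786-O to the libraries labelled resistant A498 and resistant 786-O, and the last 2 did not pass the test of their difference. UGT1A1 ran from A498 through resistant 786-O to 786-O and the libraries labelled resistant A498, which did not pass it either.

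Promoter sequences were examined because UGT1A6, UGT1A8 and UGT1A1 were low together in A498. RefSeq promoters of GRCh38.p14, from 250 bases before to 50 after a start, were found for 8 of the 9 members, with UGT1A10 unmatched and UGT1A6 having 2 entries. The core letters bound by AHR, GCGTG, searched on both strands, occurred in 36.5% of all 35116 promoters, and were found for UGT1A8, UGT1A9, UGT1A7, UGT1A4, UGT1A3 and the first entry of UGT1A6. The antioxidant response core TGACNNNGC, which NRF2 binds, occurred in 13.3% of promoters, and was found in the other entry of UGT1A6 and for UGT1A5. The promoter of UGT1A1 held neither of these cores. These are matches of letters and not measured binding. The promoters of the 2 members with the highest CPM outside A498 are shown with the matches in capitals, for UGT1A8 (chr2:233617383-233617682) and for the 2 entries of UGT1A6 (chr2:233691452-233691751 and chr2:233692640-233692939), all on the plus strand.
UGT1A8: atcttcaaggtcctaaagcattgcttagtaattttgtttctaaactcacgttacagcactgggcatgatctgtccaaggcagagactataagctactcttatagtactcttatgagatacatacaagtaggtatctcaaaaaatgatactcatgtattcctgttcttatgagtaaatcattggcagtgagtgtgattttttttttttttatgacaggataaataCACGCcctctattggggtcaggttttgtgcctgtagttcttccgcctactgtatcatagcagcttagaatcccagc
UGT1A6 first entry: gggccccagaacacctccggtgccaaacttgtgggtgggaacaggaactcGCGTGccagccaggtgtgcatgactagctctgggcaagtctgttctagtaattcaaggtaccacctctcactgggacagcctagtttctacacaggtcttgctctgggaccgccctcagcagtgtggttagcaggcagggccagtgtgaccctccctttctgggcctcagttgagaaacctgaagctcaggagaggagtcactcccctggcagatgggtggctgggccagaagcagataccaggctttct
UGT1A6 second entry: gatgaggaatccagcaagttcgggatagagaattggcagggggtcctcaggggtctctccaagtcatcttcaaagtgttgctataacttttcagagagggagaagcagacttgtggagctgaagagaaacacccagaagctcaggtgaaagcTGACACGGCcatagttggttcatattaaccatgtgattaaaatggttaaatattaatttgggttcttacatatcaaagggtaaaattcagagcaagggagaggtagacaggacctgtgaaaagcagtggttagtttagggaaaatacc

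The other genes of glucuronidation and its control were described by lists, and their members are set against the UGT1A levels above. Over all lists, 54 of 78 named genes were tested. In resistant 786-O against 786-O 19 were higher and 20 lower (72.2%, against 68.5% of all genes tested), and their median log2 fold change was -0.04, against 0.03 over all genes. Between the libraries labelled resistant A498 and A498, 13 were higher and 38 lower (94.4%, against 72.7% of all genes, 36.3% higher and 36.4% lower), with a median of -0.69 against 0.00. Against 786-O the libraries labelled resistant A498 had 24 higher and 19 lower (79.6%, against 63.6% of all genes, 31.6% higher and 32.1% lower). These shares of all genes also apply to the counts of single lists below. The change from parental to resistant libraries, as labelled, differed between the cell lines for 46 of the 54 genes (edgeR interaction term), where it did for 68.3% of all genes tested.

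Among the transcription factors known to act on UGT1A, A498 was not the lowest group for most. AHR had 18.5 CPM in A498, 10.3 in the libraries labelled resistant A498, 12.5 in 786-O and 9.32 in resistant 786-O. NFE2L2, which encodes NRF2, had 201, 137, 122 and 103 CPM in the same order. HNF4A had 4.04, 0.521 and 0.748 CPM in A498, resistant A498 and resistant 786-O, with at most 1 count per library in 786-O. A498 was the highest group for AHR, NFE2L2 and HNF4A, and also for KEAP1 (146 CPM, against 99.1 to 109 elsewhere). Among other genes of the list, it was the lowest for ARNT (19.9 CPM, against 32.3 to 34.0), PPARA (21.6, against 26.4 to 36.6) and RXRA (127, against 130 to 186). The part of these factors in the UGT1A levels was not tested. CDX2 and the xenobiotic receptor NR1I2 were at or near 0 counts in every group. In resistant 786-O against 786-O, 3 of 11 regulators tested were higher and 5 lower, among them AHR (-0.42, SE 0.09, edgeR adjusted p = 0.00058) and NFE2L2 (-0.24, SE 0.05, adjusted p = 0.00027). HNF4A was at least 10.1-fold higher in resistant 786-O. Without replicate 1 of 786-O, 5 regulators in place of 8 were called in this contrast. Between the libraries labelled resistant A498 and A498, 4 were higher and 6 lower, and against 786-O 6 were higher and 3 lower.

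NRF2 target genes, which protect against oxidants, were highest in A498. All 10 tested were lower in the libraries labelled resistant A498 than in A498, by a median log2 fold change of -2.004. In that contrast 36.4% of all genes tested were lower, and it cannot be told apart from a difference between cell lines. AKR1B10, an aldo-keto reductase, fell by 8.24 on the log2 scale (SE 0.13, edgeR adjusted p = 2.6e-16), from 1608 to 5.29 CPM. AKR1C1, of the same family, had 3.43 CPM against 713 in A498, and NQO1, a quinone reductase, 176 CPM against 1146. In 786-O the 3 genes had 5.27, 1.09 and 256 CPM. In resistant 786-O against 786-O, 4 of the 10 were higher and 4 lower (median 0.03), with AKR1C1 at 1.59 and AKR1B10 at -1.90. Against 786-O the libraries labelled resistant A498 had 4 higher and 3 lower.

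Of the 7 AHR target genes, 4 were tested. In each of the 3 contrasts 1 was higher, CYP1A1, and 3 were lower, CYP1B1, TIPARP and NQO1, the last of which is also on the NRF2 list. CYP1A1, a monooxygenase that AHR induces, had 0.712 CPM in 786-O, 3.13 in resistant 786-O and 4.20 in the libraries labelled resistant A498, a log2 fold change of 2.12 (SE 0.31, edgeR adjusted p = 2.1e-05) in resistant 786-O against 786-O. CYP1B1, of the same family, fell there by 1.92 on the log2 scale (SE 0.07, adjusted p = 8.1e-12).

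Other UGT genes showed patterns of their own. UGT2B7, which conjugates steroids and opioids, ran opposite to UGT1A6 and had 2059, 1134 and 1520 counts in A498, and at most 32 in any other library. Its mean was 56.1 ± 3.45 CPM in A498 and 0.933, 0.319 and 0.358 CPM in the libraries labelled resistant A498, 786-O and resistant 786-O. UGT2A3 had 0, 0 and 2 counts in A498, 272, 233 and 265 in the libraries labelled resistant A498, 9, 20 and 11 in 786-O, and 77, 31 and 56 in resistant 786-O. It was at least 94.0-fold higher in the libraries labelled resistant A498 than in A498, and higher in resistant 786-O than in 786-O by a log2 fold change of 1.83 (SE 0.35, edgeR adjusted p = 0.00024). UGT8, which makes galactosylceramide and is no glucuronidating enzyme, had 14.8 CPM in A498, 42.3 in the libraries labelled resistant A498, 63.6 in 786-O and 29.6 in resistant 786-O. UGT3A2 had 1, 0 and 0 counts in A498, 4, 6 and 5 in the libraries labelled resistant A498, 0 in every 786-O library, and 13, 25 and 14 in resistant 786-O. Against the floor it was at least 5.13-fold higher in resistant 786-O than in 786-O (edgeR adjusted p = 2.3e-05), and in the libraries labelled resistant A498 at least 1.88-fold higher than in A498 (adjusted p = 0.0035) and at least 2.83-fold higher than in 786-O (adjusted p = 0.00052), though it passed the filter only through the groups where it was higher. Of the 12 other UGT genes with a row these 4 were tested, and UGT2A1, UGT2B10, UGT2B15, UGT2B17, UGT2B28 and UGT3A1 had 3 counts or fewer in every library of every group.

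The supply of the sugar donor was present in all groups. UGDH, which makes UDP-glucuronic acid, had 357 CPM in A498, 61.1 in the libraries labelled resistant A498, 87.0 in 786-O and 53.7 in resistant 786-O, and was lower in resistant 786-O than in 786-O by a log2 fold change of -0.70 (SE 0.06, edgeR adjusted p = 1.2e-07). Of the 8 genes of donor supply and use, 1 was higher and 3 lower in resistant 786-O against 786-O, 4 were higher and 4 lower in the libraries labelled resistant A498 against A498, and 2 were higher and 4 lower against 786-O. PGM2, a sugar phosphate mutase, was higher by a log2 fold change of 1.599 in the libraries labelled resistant A498 than in A498 (SE 0.05, adjusted p = 9.9e-13).

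Of the tested transporters that export glucuronides or take up bilirubin, ABCC1, ABCC2, ABCC3, ABCC4, ABCG2 and SLCO2B1 were highest in A498. ABCC2, the apical exporter of bilirubin glucuronide, had 209 CPM in A498 and 5.50, 2.65 and 1.93 CPM in the libraries labelled resistant A498, 786-O and resistant 786-O. ABCC3, its basolateral counterpart, had 310, 85.8, 56.0 and 161 CPM. In resistant 786-O against 786-O, 6 of 8 were higher and 2 lower, where 35.0% of all genes tested were higher and 33.5% lower. Among these, the uptake carrier SLCO2B1 had a log2 fold change of 3.16 (SE 0.35, edgeR adjusted p = 1.4e-06) and ABCC3 1.53 (SE 0.06, adjusted p = 1.3e-11). SLCO4C1, at 2 counts or fewer per library in 786-O and 12, 1 and 7 in resistant 786-O, was at least 1.89-fold higher against the floor (adjusted p = 0.029). The libraries labelled resistant A498 had 1 higher and 6 lower against A498, where 36.4% of all genes tested were lower. They had 6 higher and none lower against 786-O, where 31.6% of all genes tested were higher.

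The 4 genes that turn heme into bilirubin, the substrate of UGT1A1, were all lower in the libraries labelled resistant A498 than in A498. Of all genes tested, 36.4% were lower in that contrast. HMOX1, the inducible heme oxygenase, had 52.5 CPM there against 550 in A498 (-3.39, SE 0.16, edgeR adjusted p = 4.4e-11). In resistant 786-O against 786-O, BLVRB, a biliverdin reductase, was higher by 1.25 (SE 0.07, adjusted p = 1.4e-09) and HMOX2, the constitutive heme oxygenase, lower by 0.80 on the log2 scale, while HMOX1 and BLVRA did not pass the test. Without resistant 786-O replicate 2 all 4 were called there. Against 786-O the libraries labelled resistant A498 had 1 higher and 3 lower.

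**Figure D5:**
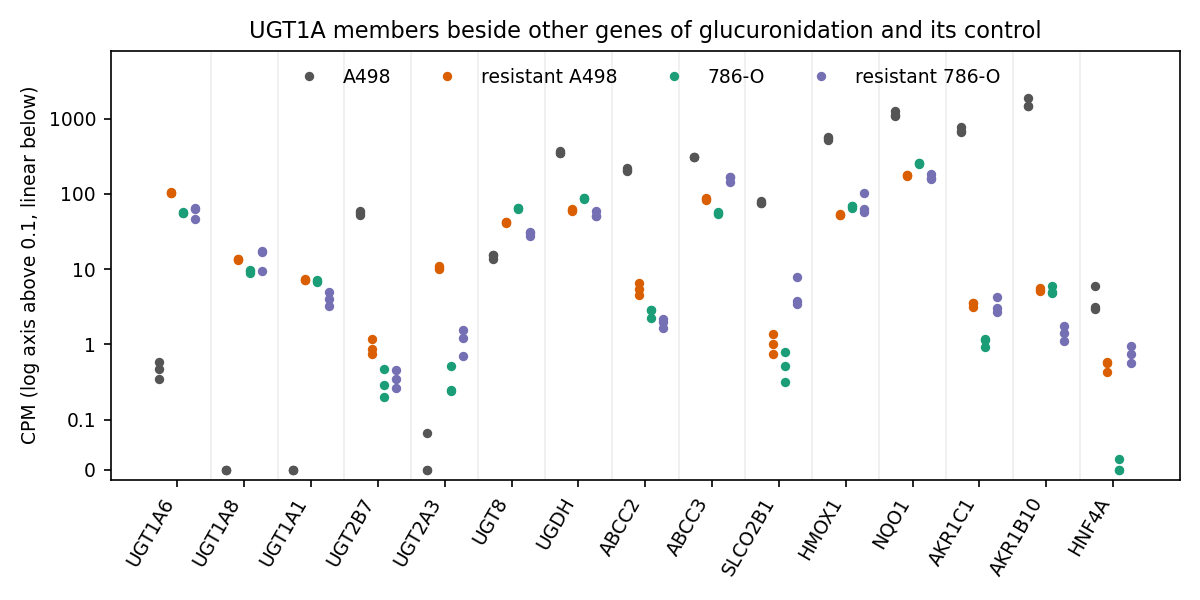
Levels of 3 UGT1A genes beside other genes of glucuronidation and its control, in CPM on an axis that is logarithmic above 0.1 and linear below, with 1 point per library and colours for the 4 groups. UGT2B7, UGDH, ABCC2 and AKR1B10 are highest in A498, where UGT1A8 and UGT1A1 are at 0 and UGT1A6 at 0.467 CPM.

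Of the 10 neighbours of the locus, 6 were tested. In resistant 786-O against 786-O 1 was higher and 2 lower, in the libraries labelled resistant A498 against A498 none was higher and 5 were lower, and against 786-O 1 was higher and 3 lower. USP40 and HJURP, the expressed genes nearest to the locus, differed between the libraries labelled resistant A498 and A498 by -0.35 (SE 0.05, edgeR adjusted p = 1.1e-05) and -0.41 (SE 0.09, adjusted p = 0.00051), in the direction opposite to the UGT1A levels.

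The 10 genes whose log2 CPM over the 12 libraries was most like that of UGT1A8, among the 15361 genes averaging 1 CPM or more, had Pearson r of 0.998 to 0.999. They were ZNF439, AGTPBP1, AFF3, TNPO2, SCRN1, ARPIN, NNT, ZNF256, CDHR1 and ZNF415. Of these, 5 had 3 counts or fewer in every A498 library, namely ZNF439, ZNF256, CDHR1 and ZNF415 with 0 counts and ARPIN with at most 1. NNT, the mitochondrial transhydrogenase, had 0.122 CPM in A498 and 235, 115 and 168 CPM in the libraries labelled resistant A498, 786-O and resistant 786-O. UGT1A6 had an r of 0.993 to UGT1A8 and UGT1A1 0.986. These correlations describe 12 libraries that fall into A498 and the rest, and the points of a group share its culture and batch.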

How the data were processed

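mRNA libraries from 12 samples were made and sequenced by the authors. Per the labels and the study's methods, reads were trimmed with Trimmomatic 0.36.6, aligned to GRCh38 with HISAT2 2.1.0 and counted per gene with featureCounts 1.6.3, with a strand-specific setting, on GENCODE annotation. The authors deposited raw counts for 45478 genes, of which 45283 had a symbol in the name table used, and every value column belonged to 1 sample. The members and lists were chosen with earlier results of these data known.

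All 12 libraries were fitted in 1 model with a term per group in edgeR 4.0.16 (R 4.3.3). Genes were filtered by filterByExpr, which left 19929, scaled by TMM and tested by the quasi-likelihood test with Benjamini-Hochberg adjustment and a threshold of 0.05. Log2 fold changes used a prior count of 0.125, and a standard error is the unshrunk log2 fold change over the root of F. CPM used the TMM-scaled totals. A group with 3 counts or fewer in every library was at the floor, and folds against it were computed at 3 counts per library. Intervals for such floors cover counting error only. Named genes were all members, up to 4 called genes with the largest change per list and contrast, list genes at the floor, set regulators, and the 10 genes most like UGT1A8 (log2 CPM, prior count 2). The test was also run on simulated data in which few genes changed, unlike in the contrasts here, so that run is no check of these calls. Some genes of the lists are counted but not reported here by name.

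Exon structure came from GENCODE 44, a later release than the authors used, on the same assembly, and promoters from RefSeq. Alternatives were DESeq2 1.42.0, other scalings, filters, priors and sample sets, and thinned counts. Further ones were the study's Welch t-test applied to raw counts, the replicate number as a block, and leaving out each library.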

Additional observations from a re-analysis of the deposited data

Results flagged for a closer look

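The change with sunitinib selection, as the labels give it, differed between the cell lines (resistant A498 against A498, minus resistant 786-O against 786-O) for 46 of 54 genes of the lists tested, by edgeR's interaction term with Benjamini-Hochberg adjustment over all genes, where 68.3% of all genes tested passed it. For ABCC3 the difference was -3.38 on the log2 scale (SE 0.08, adjusted p = 6.9e-14), and for UGT2B7 it was -6.07 (SE 0.40, adjusted p = 4.0e-09). The libraries labelled resistant A498 stand with 786-O and resistant 786-O, so a difference between the responses and one between cell lines cannot be told apart here. No such difference was tested for the UGT1A members, since the rule used the A498 contrast. With 3 libraries in each group, no library was tested as an outlier.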

How the results depend on the processing

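Of 179 recomputed log2 fold changes of the tested members, 166 kept direction and side of the threshold, 4 lost and 5 gained a call, and 4 reversed. Requiring at least 10 counts in every library removes UGT1A8, UGT1A1 and UGT1A9, which are near or at 0 in A498, and left 0 members called in resistant 786-O against 786-O (2 in the report), 1 in resistant A498 against 786-O (3 with UGT1A9) and 1 in resistant A498 against resistant 786-O (2). The study's methods name a Welch t-test of gene counts and do not say whether these were scaled. Applied here to raw counts, unscaled for depth and unadjusted, that test called 1 member in each contrast. With it the log2 fold change reversed for UGT1A8 (-0.19) and UGT1A1 (-0.68) in resistant A498 against 786-O, and for UGT1A6 (-0.085) and UGT1A1 (-0.084) in resistant A498 against resistant 786-O, where total counts of the resistant A498 libraries (20042519 to 25831163) lie below those of 786-O and resistant 786-O (40845091 to 47972092). Leaving out each library gave 2 to 3 members called in the first 2 contrasts and 2 to 4 in the last. The bound for 786-O over A498 was 74.5 to 94.4 for UGT1A8 and 56.1 to 71.1 for UGT1A1 without single libraries, 78.3 and 59.0 with library size alone, and 60.1 for UGT1A1 with DESeq2 size factors. Scaling by library size alone moved the median log2 fold change of all genes by 0.14 in resistant 786-O against 786-O and by 0.15 in resistant A498 against 786-O, and the share of calls that were higher from 51.1% to 62.5% and from 49.6% to 62.6%. Of 378 recomputed counts of called list genes, 367 were within 1.5 times. For resistant 786-O against 786-O, library size alone gave 5 regulators (8 in the report) and 6 neighbours (3), and leaving out a library gave 5 regulators (without 786-O replicate 1) and 4 heme genes (2, without resistant 786-O replicate 2). At least 10 counts in every library gave 5 regulators and 1 other UGT gene, UGT8 (3), there, UGT8 alone (4) in resistant A498 against A498 and against 786-O, and 2 neighbours (4) in the last. With no filter 1 pseudogene (0) was called in resistant 786-O against 786-O, UGT1A13P, and 1 in resistant A498 against A498, UGT1A2P. Depth limits UGT1A9, UGT1A10, UGT1A7 and UGT1A4, at 21 counts or fewer per library.

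The replicate numbers do not pair the samples, with correlations of same-numbered deviations from -0.086 to 0.044 over 18 pairs. With the replicate block 2, 3 and 2 members were called in the 3 contrasts, and 13497 genes in all in resistant 786-O against 786-O, where 13643 were called without it.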
